A study of Mus musculus with 3 samples.

Results

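Cathepsins are the proteases of the lysosome, the acidic compartment in which cells break down proteins, and several of them can also be secreted and act on cartilage matrix. Cystatin C, encoded by Cst3, is a secreted inhibitor of the cysteine cathepsins, and the HtrA proteases are serine proteases, of which HtrA1 and HtrA3 are secreted and can cut matrix proteins. The genes described here are 9 of the 44788 gene symbols in the count table, taken by symbol from a named list. They are the cysteine cathepsins Ctsb, Ctsk, Ctsl, Ctss and Ctsz, the aspartic cathepsin Ctsd, the inhibitor Cst3, and Htra1 and Htra3. Of these 9, 8 passed the filter on low counts and Ctss did not.

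RNA was measured by sequencing in primary chondrocytes, the cells of cartilage, from the knee joints of C57BL/6 mice. The cKO cells (2 libraries) had the genotype Col2a1-CreERT2;Kdm6bf/f, which joins floxed Kdm6b alleles to a tamoxifen-activated Cre recombinase driven by the chondrocyte promoter of Col2a1. The Control cells (1 library) had the genotype Kdm6bf/f, with floxed alleles and no Cre. Both genotypes were exposed to 1 µM 4-hydroxytamoxifen for 48 h in F12 medium with 10% serum, so exposure to the drug is shared and the presence of active Cre is not. The sources used here give neither the age of the mice nor whether animals were pooled. Kdm6b encodes a demethylase of histone H3 lysine methylation.

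The libraries held between 12489738 and 12636471 counts. Kdm6b itself reached 1049 and 948 counts in cKO, against 1289 in Control, a log2 fold change of -0.39 ± 0.14 (SE) that did not pass (adjusted p = 0.138 in edgeR), and counts over the whole gene do not isolate the floxed part. The cKO libraries differed from each other in sex-linked RNA, with 2 and 10081 counts of Xist against 1 in Control. The Y-linked gene Ddx3y had 680 and 0 counts in cKO, against 732 in Control. Eif2s3y, Kdm5d and Uty, also Y-linked, had 0 counts in cKO replicate 2 only. By these counts cKO replicate 2 was female and the other libraries were male, so sex was not balanced between the groups. All 10 chondrocyte markers were expressed, with a summed level of 17880 and 16530 CPM (counts scaled to library size) in cKO and 29820 CPM in Control. Of 10 osteoclast markers 5 had no count in any library, among them Calcr, Ocstamp and Dcstamp, 0 of the 3 tested passed or had an unadjusted p under 0.05 in edgeR, and the list summed to 19.9 and 17.0 CPM in cKO, against 14.2 CPM in Control. The smallest p was that of the integrin gene Itgb3, with 179 and 148 counts in cKO, against 114 in Control (log2 fold change 0.50 ± 0.25 SE, adjusted p = 0.355 in edgeR). Of 16 macrophage and leukocyte markers 4 had no count, among them Itgam and Tyrobp, and 0 of the 5 tested passed. Of these 5, 2 had an unadjusted p under 0.05 in edgeR. Over all 15529 genes tested, 4.91% passed and 2431 had an unadjusted p under 0.05 in edgeR. The macrophage and leukocyte list summed to 16.2 and 17.1 CPM in cKO, against 10.2 CPM in Control. All 5 tested had positive log2 fold changes, among them the receptor gene Csf1r with 33 and 28 counts in cKO, against 8 in Control (1.89 ± 0.61 SE, adjusted p = 0.0835 in edgeR), and Cd68 with 59 and 57 counts in cKO, against 32 in Control (0.83 ± 0.39, adjusted p = 0.293). The pan-leukocyte gene Ptprc had 1 and 1 counts in cKO, against 0 in Control. Of 10 fibroblast and synovium markers 2, Thy1 and Prg4, were higher in edgeR, against 3.01% of all genes tested, and 0 were in DESeq2. Thy1 differed between the cKO libraries, with 623 and 259 counts, against 139 in Control. The log2 fold change was positive for 6 of the 10, and the lowest was that of Dpt (-1.29 ± 0.50 SE, adjusted p = 0.178 in edgeR). This list summed to 20380 and 18490 CPM in cKO, against 20900 CPM in Control. In bulk RNA, fewer cells of a type and less RNA per cell cannot be told apart.

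Of the 8 members tested, the inhibitor gene Cst3 had the largest change. It fell to about a 0.355-fold level in cKO chondrocytes, Htra1 fell to a 0.688-fold level, and none of the cathepsins passed the test in either direction. In edgeR, 2 of the 8 members tested were lower and 0 were higher, while over all 15529 genes tested 1.9% were lower and 3.01% were higher. These 2 were also the members with an unadjusted p under 0.05 in edgeR, a level reached by 2431 of all 15529 genes tested. In DESeq2 1 member, Cst3, was lower and 0 were higher, against 0.541% and 1.46% of all genes, and in limma-voom 2 were lower and 0 were higher, against 2.32% and 2.99%. Each edgeR p rests on a variance that joins the gene's own cKO pair (1 residual degree of freedom) to a trend over all genes. The trend carries most of the weight (prior degrees of freedom 19.9), so the p does not rest on that gene's own cKO pair alone. All tests assume that the lone Control library varies like the cKO libraries. The labels do not tie the libraries to separate cultures or animals, but the sex-linked counts place the cKO libraries in different animals. Their spread thus includes any difference by sex.

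**Figure D1:**
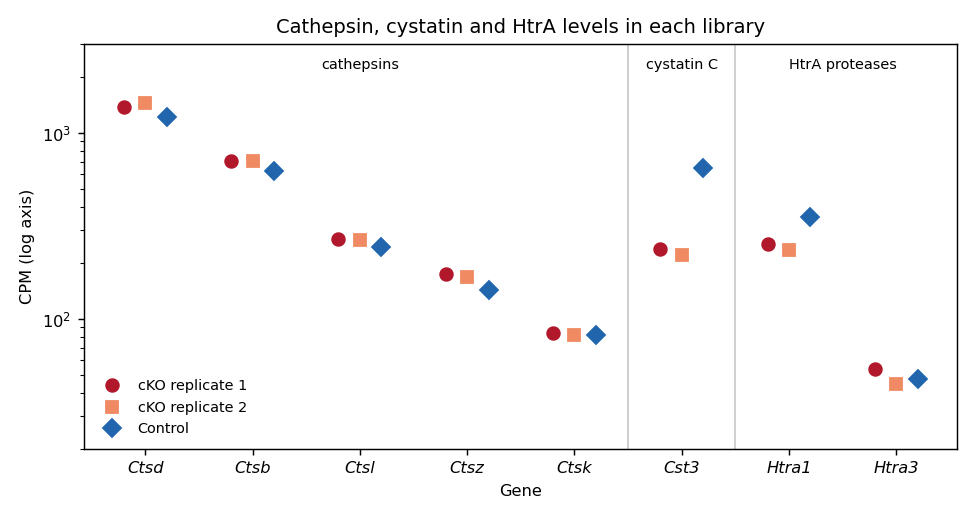
Level of each member in each library in CPM on a log axis, with 1 point per library and no error bar; Ctss, with 1 count in all, is not drawn. Cst3 sat at 237 and 221.5 CPM in cKO, below 646 CPM in Control, while the points of the cathepsins lie close together.

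Cst3 lies on the minus strand of chromosome 2 from 148871722 to 148875692 (GRCm38, GENCODE M21) and gave 2952 and 2835 counts in cKO chondrocytes, against 8018 counts in Control. Scaled to library size these were 237 and 221.5 CPM in cKO, against 646 CPM in Control. Both cKO libraries were far below Control and close to each other. The cKO mean was 229 ± 11.0 CPM (SD, n = 2), and the log2 fold change was -1.50 ± 0.13 (SE; 95% interval -1.77 to -1.22), with an adjusted p of 4.91e-08 in edgeR. By library the log2 ratio to Control was -1.45 (counting interval -1.51 to -1.39) for cKO replicate 1 and -1.54 (-1.61 to -1.48) for cKO replicate 2. The cKO libraries differed from each other by 0.10 on the log2 scale.

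Cst3 was among the most abundant transcripts of the Control library, where its CPM ranked 139 among the genes tested. Among the 11339 genes with a mean of at least 5 CPM, 18 had a log2 fold change as low as that of Cst3 or lower, Cst3 included. The chondrocyte markers had negative log2 fold changes in 10 of 10 cases, with a median of -1.22 against -0.002 over all genes tested. In edgeR 9 of 10 were lower, against 1.9% of all genes, in DESeq2 8 and in limma-voom 10, but 5 and 2 with prior degrees of freedom of 5 and 3, and 0 without the filter on low counts. The one not called in edgeR was the collagen gene Col2a1 (-0.71 ± 0.33 SE, adjusted p = 0.283), which passed in DESeq2 (adjusted p = 0.000515) and limma-voom (adjusted p = 0.00456). Matn1 and Ucma, both cartilage matrix genes, were at -1.99 ± 0.15 and -1.79 ± 0.16, and the link protein gene Hapln1 and the collagen gene Col9a1 at -1.18 ± 0.13 and -1.25 ± 0.14 (log2 fold change with SE). The part of this change in the Cst3 result was not tested. The 3 genes nearest to Cst3 in their pair of log2 ratios to Control, among 11338 others, were Hpgd, which degrades prostaglandins, the ribosomal protein gene Rps13 and the cartilage gene Lect1. Hpgd was at -1.49 ± 0.26, Rps13 at -1.55 ± 0.23 and Lect1 at -1.51 ± 0.14 (log2 fold change with SE). With 3 libraries this likeness rests on a pair of ratios that share the Control library.

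No other secreted cystatin was abundant. Of the 6 protein-coding genes within 100 kb of Cst3 in its cluster, among them Cst8, Cst9, Cst12 and Cst13, 0 had any count. Of 15 other cystatins, stefins, fetuins and kininogen genes in the table, 9 had no count in any library and 4 were tested. Of these 4, 0 passed in any of the 3 tools, while 4.91% of all genes tested passed in edgeR. In edgeR 0 of the 4 had an unadjusted p under 0.05, against 2431 of all 15529 genes. The most abundant of these inhibitor genes was Cstb, the intracellular inhibitor stefin B, at 44.2 and 62.0 CPM in cKO, against 66.3 CPM in Control (log2 fold change -0.32 ± 0.17 SE, adjusted p = 0.393 in edgeR). Cst6, Fetub and Kng1 stayed below 4 CPM in each library, with log2 fold changes of 0.67 ± 0.49, 0.90 ± 0.80 and 1.47 ± 1.04 (SE), and Kng1 had 20 and 3 counts in cKO, against 4 in Control.

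The next sequence is the far part of the window of 250 bases before the Cst3 start given by RefSeq (chr2:148875693-148875762, minus strand, GRCm38.p6), and is shown because Cst3 had the largest change of the members.
Cst3: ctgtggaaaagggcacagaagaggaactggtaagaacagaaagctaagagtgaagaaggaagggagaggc
It holds only the bases that lie upstream of every GENCODE M21 transcript of the gene. In the whole window, a GC box (GGGCGG, searched on both strands) lay 67 to 62 bases before the RefSeq start, and the letters of the interferon response core, the E-box and the SOX motif, given with Ctss, Ctsd and Ctsk, were not found. GC boxes stood in 32.7% of all 32851 promoter windows. The window had 59.6% GC and 8 CpG sites, against medians of 52.4% and 6.

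Cathepsins B, L, K, S and Z are cysteine proteases, the class of cathepsins that cystatin C inhibits, so their counts were set beside those of Cst3 within each library, where library size cancels. Together they had 15305 and 15637 counts in cKO, against 13513 counts in Control. There were 5.19 (95% exact binomial interval 4.98 to 5.40) and 5.52 (5.30 to 5.74) cathepsin counts per Cst3 count in cKO, and 1.69 (1.64 to 1.73) in Control. The ratio was 3.08 and 3.27 times that of Control in the cKO libraries, and both lay above it. These intervals cover counting error only, the ratio follows the Cst3 counts, and with 1 Control library it has no replicate check. It counts RNA and not protein or activity. Gene length was not taken into account (6051 exonic bases for Ctsb, 6489 for Ctsl and 1266 for Cst3). The ratio can therefore be compared between libraries but does not tell which RNA was more abundant.

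**Figure D2:**
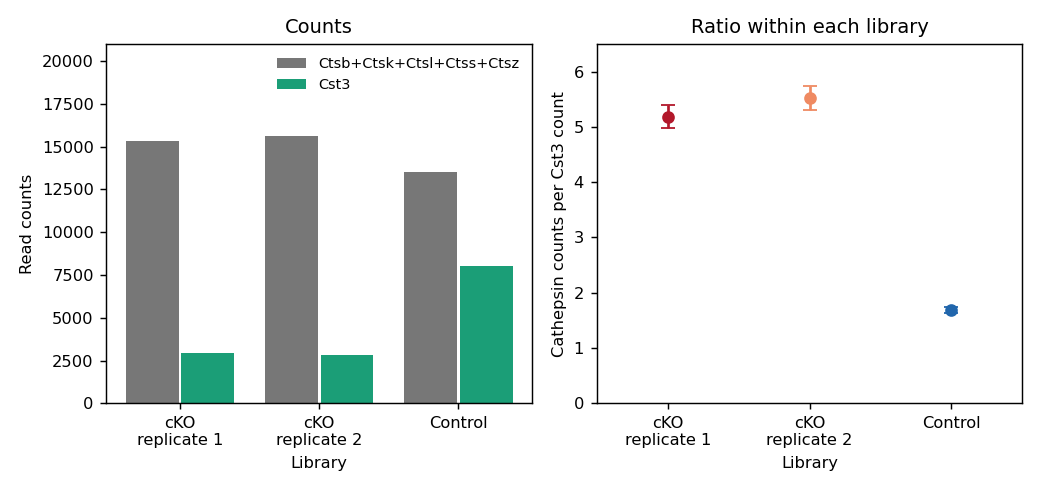
Left, read counts of 5 cysteine cathepsin genes summed and of Cst3 in each library (bars from 0); right, their ratio within each library with 95% exact binomial intervals that cover counting error only. The cathepsin bars lie between 13513 and 15637 counts, while the ratio is 5.19 and 5.52 in cKO and 1.69 in Control. Counts are not scaled for gene length.

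Ctsd encodes the main aspartic protease of the lysosome and lies on chromosome 7 from 142375911 to 142388038 (minus strand, GRCm38). It had 17084 and 18462 counts in cKO, against 15055 in Control, or 1372 and 1442 CPM in cKO, against 1213 CPM in Control. Both cKO values were above Control, but the log2 fold change of 0.21 ± 0.17 (SE; 95% interval -0.14 to 0.57) did not pass (adjusted p = 0.618 in edgeR). It was the most abundant member in CPM in each library. A predicted gene, Gm49369, shares 34.4% of the exonic bases of Ctsd on the same strand and has no row of its own in the table.

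Ctsb encodes cathepsin B, a lysosomal cysteine protease, and lies on chromosome 14 from 63122462 to 63145923 (plus strand). It had 8732 and 9069 counts in cKO, against 7724 in Control, which are 701 and 709 CPM in cKO, against 623 CPM in Control. The log2 fold change was 0.18 ± 0.15 (SE; 95% interval -0.13 to 0.49; adjusted p = 0.640 in edgeR). The cKO libraries differed by only 0.015 on the log2 scale, yet the difference from Control did not pass. The 3′ end of Ctsb overlaps Fdft1 on the other strand over 774 bases, 12.8% of its exonic length, and Fdft1, the gene of an enzyme of sterol synthesis, had 507 and 493 counts in cKO, against 397 in Control. Whether counting used strand is not stated, and without strand the reads of that stretch cannot be told apart.

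Ctsl, the gene of cathepsin L on chromosome 13 (64359337 to 64370890, minus strand), had 3352 and 3384 counts in cKO, against 3004 in Control. In CPM it stood at 269 and 264 in cKO and 242 in Control, with a log2 fold change of 0.14 ± 0.14 (SE; 95% interval -0.14 to 0.42; adjusted p = 0.704 in edgeR). Of its transcript stretches of 50 bases, 26.3% also occur in transcripts of other genes, on either strand, among them the antisense gene Gm47123. This share was 32.4% for Ctsd, 12.1% for Ctsb and 0% for Ctsk, Ctss, Ctsz, Cst3, Htra1 and Htra3. The counts of Ctsl, Ctsd and Ctsb are therefore less certain than those of the other members. Ctsz, which encodes the carboxypeptidase cathepsin Z on chromosome 2 (174427493 to 174439039, minus strand), had 2179 and 2143 counts in cKO, against 1767 in Control. Its 175 and 167 CPM in cKO, against 142 CPM in Control, gave the largest positive log2 fold change of the members, 0.27 ± 0.14 (SE; 95% interval -0.016 to 0.55), which did not pass (adjusted p = 0.360 in edgeR). Its exons meet those of Nelfcd, on the other strand, over 10 bases.

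Ctsb, Ctsd, Ctsl and Ctsz thus had fitted levels between 10.2% and 20.2% above Control, each with an interval that includes 0 on the log2 scale and reaches at most 0.57. For these 4 genes the counting interval of each cKO library against Control lay above 0, which compares these libraries and not the genotypes.

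Ctsk encodes cathepsin K, the collagen-cutting protease for which osteoclasts are known, and Ctss encodes cathepsin S, which in antigen-presenting cells cuts the invariant chain of MHC class II. They are neighbours in the same orientation on chromosome 3, with Ctsk from 95499256 to 95509362, Ctss from 95526786 to 95556403 and 17424 bases between them (GRCm38). Ctsk had 1041 and 1041 counts in cKO, against 1018 in Control, or 83.6 and 81.3 CPM in cKO, against 82.1 CPM in Control. The cKO values lay on either side of Control, and the log2 fold change was 0.01 ± 0.14 (SE; 95% interval -0.28 to 0.30; adjusted p = 0.992 in edgeR), at -0.024 with upper-quartile scaling. Acp5, an osteoclast enzyme gene, was at 3.69 and 4.22 CPM in cKO, against 3.95 CPM in Control.

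Ctss had 1 and 0 counts in cKO, against 0 in Control. A count of 0 allows up to 3 counts, or 0.234 CPM in cKO replicate 2 and 0.242 CPM in Control, so no fold is given. This low level stood beside a rise of interferon-stimulated genes, of which 10 of 10 listed were higher in edgeR, against 3.01% of all genes tested. In DESeq2 9 were higher, in limma-voom 10, and 0 without the filter on low counts. The list summed to 2112 and 2081 CPM in cKO, against 103 CPM in Control. Isg15, a ubiquitin-like modifier, had 3769 and 3471 counts in cKO, against 46 in Control. Of 11 listed genes of class II presentation, in which cathepsin S works, 7 were below the filter, 3 of them at 0 in all libraries. Below it were the invariant chain gene Cd74, with 3 and 1 counts in cKO, against 3 in Control, the transactivator gene Ciita and the class II chain gene H2-Aa. The class II chain gene H2-Ab1 was not, with 414 and 439 counts in cKO, against 395 in Control, or 33.2 and 34.3 CPM in cKO, against 31.8 CPM in Control, and H2-DMb1 had 63 and 58 counts in cKO, against 57 in Control. Of the 4 class II genes tested 0 passed in edgeR, DESeq2 or limma-voom, with 0 at an unadjusted p under 0.05. In edgeR 4.91% of all 15529 genes tested passed, and 2431 had an unadjusted p under 0.05. Ifi30, a lysosomal thiol reductase, was at 37.5 and 42.3 CPM in cKO, against 31.6 CPM in Control (log2 fold change 0.34 ± 0.17 SE, adjusted p = 0.341 in edgeR).

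The promoter windows of the neighbours Ctsk (chr3:95498960-95499209) and Ctss (chr3:95526536-95526785), both on the plus strand of GRCm38.p6 from RefSeq, are shown because one gene was expressed and the other was almost without counts. Capitals mark matches to the motifs searched.
Ctsk: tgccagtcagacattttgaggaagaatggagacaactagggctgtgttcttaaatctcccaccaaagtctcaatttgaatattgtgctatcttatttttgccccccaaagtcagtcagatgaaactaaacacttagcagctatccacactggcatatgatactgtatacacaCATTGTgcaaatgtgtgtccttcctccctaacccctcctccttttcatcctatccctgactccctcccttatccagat
Ctss: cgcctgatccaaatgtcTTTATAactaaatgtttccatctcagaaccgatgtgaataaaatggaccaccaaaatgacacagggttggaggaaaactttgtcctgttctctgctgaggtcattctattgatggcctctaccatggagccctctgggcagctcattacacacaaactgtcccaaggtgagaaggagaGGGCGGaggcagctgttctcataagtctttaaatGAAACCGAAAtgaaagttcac
In the Ctss window the core of the interferon-stimulated response element, searched on both strands as GAAA, any 2 bases and GAAA again, lay 21 to 12 bases before the start. This motif was found in 2.98% of all promoter windows and in 1 of the 8 member promoters in the RefSeq table, that of Ctss. The Ctss window also held a GC box and the letters TATAAA on the minus strand, 233 to 228 bases before the start. In the Ctsk window the only match was a SOX motif (ACAATG, here on the minus strand) 78 to 73 bases before the start, a motif found in 10.7% of all windows. The Ctsk window had 0 CpG sites and 43.2% GC. The gamma-activated site letters TTCNNNGAA were in none of the 8 member windows, against 7.02% of all windows.

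Htra1 encodes a secreted serine protease that cuts matrix proteins such as fibronectin and can bind TGF-beta family proteins. It lies on chromosome 7 from 130936111 to 130985660 (plus strand, GRCm38) and had 3142 and 2982 counts in cKO, against 4377 counts in Control. In CPM these were 252 and 233 in cKO and 353 in Control, and both cKO values lay below Control. The cKO mean was 243 ± 13.6 CPM (SD, n = 2), with a log2 fold change of -0.54 ± 0.13 (SE; 95% interval -0.82 to -0.26) and an adjusted p of 0.0186 in edgeR. In DESeq2 the same fold change did not pass (adjusted p = 0.0950), while in limma-voom it did (adjusted p = 0.0196). Chondrocyte markers, of which 9 of 10 were lower in edgeR, stood at a summed 17880 and 16530 CPM in cKO, against 29820 CPM in Control. Most of this sum was Col2a1, the marker not called in edgeR, at 12530 and 11980 CPM in cKO, against 20120 CPM in Control. The part of the chondrocyte markers in the Htra1 result was not tested. The annotated span of Fgfr2, on the opposite strand, covers Htra1 without sharing exonic bases. Fgfr2, a growth factor receptor gene, had 4662 and 4242 counts in cKO, against 6090 in Control.

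The stretch upstream of every GENCODE transcript of Htra1 (chr7:130935953-130936110, plus strand, GRCm38.p6) is shown as that of the other member that fell, with a GC box on the minus strand in capitals.
Htra1: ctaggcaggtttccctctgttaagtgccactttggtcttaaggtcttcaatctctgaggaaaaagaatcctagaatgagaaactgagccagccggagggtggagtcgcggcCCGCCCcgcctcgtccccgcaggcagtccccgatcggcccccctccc
The whole window of 250 bases had 64.8% GC and 22 CpG sites and held a CCAAT box (CCAAT) 48 to 44 bases before the start, a motif found in 33.8% of all windows. Cst3 and Htra1 shared the GC box among the motifs searched, which the windows of Ctsd, Ctss and Ctsz held as well.

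Htra3, whose product is a related secreted protease, lies on chromosome 5 from 35652023 to 35679782 (minus strand) and had 672 and 569 counts in cKO, against 590 in Control. Its 54.0 and 44.5 CPM in cKO lay on either side of the 47.6 CPM in Control, so the groups overlapped, and the log2 fold change was 0.05 ± 0.16 (SE; 95% interval -0.28 to 0.38; adjusted p = 0.936 in edgeR). The cKO libraries differed by 0.28 on the log2 scale, the widest spread of the 8 members tested. Within each library there were 4.68 and 5.24 Htra1 counts per Htra3 count in cKO and 7.42 in Control. Htra2, the mitochondrial member of the family, was at 44.3 and 50.8 CPM in cKO, against 40.6 CPM in Control (log2 fold change 0.23 ± 0.16 SE, adjusted p = 0.555 in edgeR). Htra4, another secreted member, had 47 and 53 counts in cKO, against 15 in Control. At 3.77 and 4.14 CPM in cKO, against 1.21 CPM in Control, it rose by 1.70 ± 0.47 on the log2 scale (SE, adjusted p = 0.0375 in edgeR), and it did not pass in DESeq2 (adjusted p = 0.630) or limma-voom (adjusted p = 0.0724). A long noncoding gene on the other strand, Gm16933, overlaps 32.9% of its exonic bases.

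**Figure D3:**
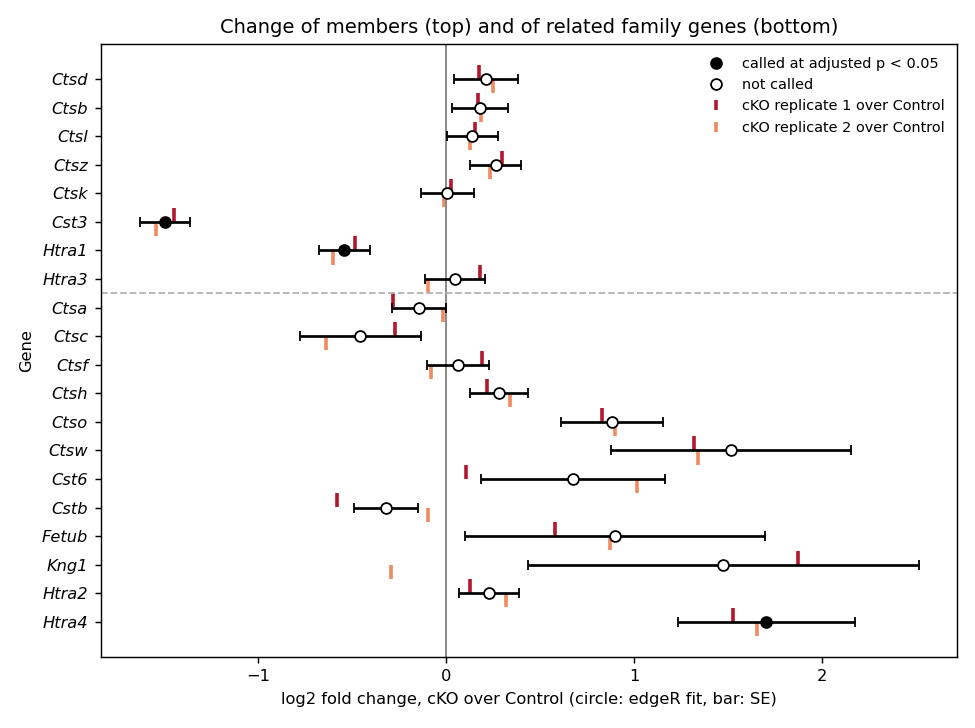
Log2 fold change of cKO over Control for the 8 tested members (above the dashed line) and 12 related family genes (below it); circles are the edgeR fit with SE bars, filled where the adjusted p is under 0.05, and ticks are the cKO libraries against Control with a prior count of 2. Cst3 at -1.50 and Htra1 at -0.54 are the filled members, and Htra4 at 1.70 is the filled relative.

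Of 17 other cathepsin genes listed, 11 had no count in any library, including the rodent placental genes Ctsj, Ctsm, Ctsq and Ctsr. The 6 that were tested gave 0 calls in the 3 tools, while 4.91% of all genes tested passed in edgeR. Of these 6, 2 reached an unadjusted p under 0.05 in edgeR, against 2431 of all 15529 genes. The 2 were Ctso, with 137 and 148 counts in cKO, against 76 in Control (log2 fold change 0.88 ± 0.27 SE, adjusted p = 0.0689 in edgeR), and Ctsw, with 23 and 24 counts in cKO, against 8 in Control (1.51 ± 0.64, adjusted p = 0.233). Ctsa, the most abundant of them and a carboxypeptidase that also protects lysosomal neuraminidase, was at 243 and 293 CPM in cKO, against 296 CPM in Control (-0.14 ± 0.14). Ctsh and Ctsf were at 0.28 ± 0.15 and 0.06 ± 0.17, and Ctsc, which activates granule proteases of leukocytes, was at -0.46 ± 0.32 (log2 fold change with SE).

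Levels can be set against each other only per length, here as counts per kilobase scaled to library size (RPKM) over all annotated exonic bases. Ctsd led in cKO at 584 and 613 RPKM, followed by Cst3 at 187 and 175 RPKM. In Control, Ctsd at 516 RPKM and Cst3 at 511 RPKM lay side by side. Below them in cKO came Ctsz at 121 and 116 RPKM and Ctsb at 116 and 117 RPKM, whose values overlap, and then Htra1 at 87.6 and 80.9 RPKM. In Control, Htra1 at 123 RPKM stood above Ctsb at 103 RPKM and Ctsz at 98.8 RPKM. Ctsk followed at 55.3 and 53.8 RPKM in cKO, against 54.3 RPKM in Control. Ctsl was at 41.5 and 40.8 RPKM in cKO, against 37.3 RPKM in Control. Htra3 was lowest of the tested members at 12.2 and 10.0 RPKM in cKO, against 10.7 RPKM in Control. The order depends on the length used. Over the principal coding transcript alone, Cst3 was at 752 RPKM in Control, above Ctsd at 570 RPKM, while in cKO Ctsd at 645 and 678 RPKM stayed above Cst3 at 276 and 258 RPKM. Ctsl was then at 137 and 134 RPKM in cKO, against 123 RPKM in Control.

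Among genes of the wider lysosome, the share called higher was near that of all genes. Of 72 genes in 4 lists (hydrolases, membrane proteins and activators, sorting receptors and the proton pump), 2 rose and 0 fell in edgeR. This is 2.78% higher against 3.01% of all genes tested, and 0% lower against 1.9%. The median log2 fold change was 0.07 against -0.002 over all genes. The summed level of the 4 lists was 9551 and 9583 CPM in cKO, against 8942 CPM in Control. Both called genes were hydrolases. Gla, the X-linked gene of alpha-galactosidase A, had 365 and 401 counts in cKO, against 194 in Control, and rose by 0.95 ± 0.19 on the log2 scale (SE, adjusted p = 0.0028 in edgeR; 0.0816 in DESeq2). Both cKO libraries lay above Control, although Xist counts set cKO replicate 2 apart from the other libraries. Arsb, a sulfatase that acts on chondroitin and dermatan sulfate, was at 116 and 101 CPM in cKO, against 75.9 CPM in Control, and rose by 0.51 ± 0.15 (adjusted p = 0.0428 in edgeR; 0.395 in DESeq2). Gm26527, a noncoding gene on the other strand, overlaps 32.3% of the exonic bases of Arsb.

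In the other 3 of these lists 0 genes passed in edgeR, DESeq2 or limma-voom, while 4.91% of all genes tested passed in edgeR. An unadjusted p under 0.05 in edgeR was found for 2 of 15 membrane and activator genes, 2 of 11 sorting genes and 1 of 16 proton pump genes. Over all genes tested it was found for 2431 of 15529. Npc2, a lysosomal cholesterol carrier, was at 385 and 551 CPM in cKO, against 353 CPM in Control (log2 fold change 0.41 ± 0.17 SE, adjusted p = 0.242 in edgeR). Gga1, a sorting adaptor, was at 0.37 ± 0.14 (adjusted p = 0.170), and Atp6v1d, a pump subunit, at 0.34 ± 0.16 (adjusted p = 0.301). The proton pump list had a median of -0.06. Of the transcription factors of the MiT/TFE family, which drive lysosomal genes through E-boxes, Tfeb, Tfe3 and Mitf were tested. Of these, 0 passed in edgeR, DESeq2 or limma-voom, with 0 at an unadjusted p under 0.05, beside the shares of all genes given above. Tfe3 was at 88.2 and 90.2 CPM in cKO, against 73.6 CPM in Control (0.28 ± 0.14, adjusted p = 0.356 in edgeR).

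The E-box letters CACGTG read the same on both strands and form the centre of the element bound by these factors. They were in the windows of Ctsd and Ctsl among the 8 member promoters, and in 6.02% of all windows. The Ctsl window (chr13:64370521-64370770) lies wholly inside the GENCODE span of Ctsl, so its E-box is not upstream of every GENCODE transcript. Ctsd held a pair, 245 to 240 and 98 to 93 bases before the start, and the outer one lies in the stretch upstream of every GENCODE transcript (chr7:142388039-142388077, minus strand, GRCm38.p6), where capitals mark it.
Ctsd: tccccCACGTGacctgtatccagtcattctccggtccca

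**Figure D4:**
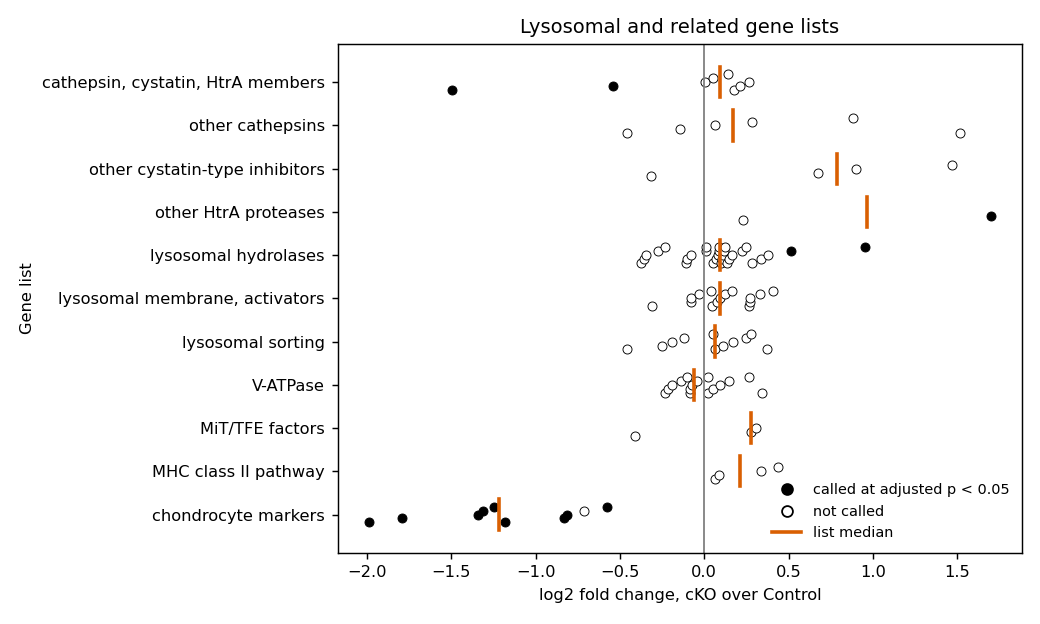
Log2 fold change of cKO over Control for each tested gene of 11 lists, 1 point per gene, filled where the edgeR adjusted p is under 0.05, with the list median as an orange line. The lysosomal lists cluster near 0 with medians from -0.06 to 0.09, while the chondrocyte markers have a median of -1.22.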

How the data were processed

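The authors deposited whole-number read counts per gene symbol for 3 libraries, and all tests start from these counts. Per the labels' protocols, total RNA was depleted of ribosomal RNA and sequenced on an Ion Proton. The submitters' processing notes name GRCm38 and GRCh37 without a role. The sources used here name no aligner, counter or annotation and do not say whether strand was used.

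The fit used edgeR 4.0.16 in R 4.3.3 (filterByExpr, TMM, quasi-likelihood F test with adjusted deviances, Benjamini-Hochberg over 15529 genes, threshold 0.05), with 1 residual degree of freedom and an estimated prior of 19.9. SE is the log2 fold change over the square root of F. DESeq2 1.42.0, limma-voom (limma 3.58.1), other scalings, no filter and lower prior degrees of freedom were tried, and the fit was tested on simulated data. There edgeR recovered 3 of 76 genes changed 1.4-fold, 26 of 66 changed 2-fold and 44 of 58 changed 4-fold. DESeq2 recovered 0, 14 and 37 of these. The changed genes were drawn at random from all 15529 tested, at any count level, so these shares are not those of the members. Small changes were mostly missed in the simulation, and a gene that did not pass is not shown to be unchanged. The cKO columns differed by more than counting noise (chi-square of 9.06 per gene). Lengths and positions are from GENCODE M21 (GRCm38) and promoters from RefSeq (GRCm38.p6), where 8 of the 9 members matched. Members and lists were chosen with earlier results of these data known. Named are all members, tested family relatives, up to 4 called genes (otherwise the one with the smallest p) of a list, and the 3 genes nearest in pattern to Cst3. Of the interferon list only the gene with the smallest p is named. Genes next to members without exon overlap, and the further markers and class II genes given beside these, were named after their values were seen.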

Additional observations from a re-analysis of the deposited data

How the results depend on the processing

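Cst3 kept its direction under each alternative run, with log2 fold changes from -1.54 to -1.45, and of those with a test it failed one. With no filter on low counts edgeR called 0 genes higher and 0 lower of 24051, with 1829 at an unadjusted p under 0.05, the estimated prior degrees of freedom fell to 2.03, and 0 members and 0 related genes passed (Cst3 adjusted p = 0.174). Against 467 genes higher and 295 lower as reported, in DESeq2 226 were higher and 84 lower, with prior degrees of freedom of 5 these were 151 and 42, and of 3 they were 83 and 4. Under each of these 3 settings 1 member was lower, Cst3 (adjusted p = 1.21e-15, 0.00417 and 0.0495), Htra1 did not pass (adjusted p = 0.0950, 0.199 and 0.447), and 0 of the 3 related genes called higher passed. The older quasi-likelihood method, added after seeing the data, called both members lower. Members near 0 changed sign. Ctsk was at -0.024 with upper-quartile scaling, and with 1 cKO library left out at a time it ranged from -0.013 to 0.027 and Htra3 from -0.097 to 0.182. Those values have no test, since 1 library against 1 leaves no residual degrees of freedom. No paired analysis was possible because the Control label carries no replicate number. Depth limits Ctss, Htra4 and the other genes with few counts.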
